A study of Homo sapiens with 27 samples.

Results

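The 10 genes described here were taken by name: VIM, ZEB1, ZEB2, SNAI1, SNAI2, TWIST1, EPCAM, ESRP1, ESRP2 and OVOL1. They are 10 of the 60619 genes in the deposited count table. All are regulators or markers of epithelial-mesenchymal transition (EMT), and all 10 were found in the table by Ensembl ID. Their levels were followed across the 9 groups of an RNA-Seq experiment on 2 estrogen receptor-positive cell lines of invasive lobular carcinoma (ILC), MM134 and SUM44. Each group had 3 libraries.

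In EMT, epithelial cells lose their junctions and polarity and take on a motile, mesenchymal form. The program is run by transcription factors of the ZEB, SNAI and TWIST families, which repress epithelial genes such as CDH1 (E-cadherin) through E-boxes in their promoters. It is held back by factors such as OVOL1, by the splicing regulators ESRP1 and ESRP2, which keep epithelial isoforms of many transcripts, and by microRNAs of the miR-200 family, which target ZEB1 and ZEB2. VIM encodes vimentin, the intermediate filament of mesenchymal cells, and EPCAM an adhesion molecule of epithelial cells. ILC is known for the loss of E-cadherin, so its cells are discohesive without having to pass through EMT.

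The groups were as follows. MM134 parental cells were deprived of hormone for 3 days before collection, as were the parental cells of the other line. MM134 LTED-A, -B, -D and -E are variants derived separately from MM134 by long-term estrogen deprivation (LTED), that is, months of growth in medium with charcoal-stripped serum. SUM44PE is the original SUM44 culture, and SUM44F was derived from it in medium with fetal bovine serum and is the parental line of the A and B variants of SUM44 LTED. The libraries of a group are cultures of 1 cell line, so each p-value measures the spread between these cultures, which may be technical, and each variant is 1 derivation.

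The libraries held 28583554 to 134882175 counts, with a median of 44018412. The counts of replicates 2 and 3 of SUM44 LTED-A were closer than sampling noise allows (chi-square per degree of freedom 0.312, against 2.35 to 58.1 in the other 26 replicate pairs) and were counted as 1 sample, which leaves 26 samples. All 7 luminal breast carcinoma markers examined, ESR1, GATA3, FOXA1, KRT8, KRT18, KRT19 and XBP1, were above 1 CPM (counts scaled to a common library total) in every sample. One library stood apart before any comparison was made. In SUM44F replicate 1 the 9 fibroblast markers summed to 372.8 CPM, against 8.641 and 9.688 CPM in the other SUM44F replicates, and 8 of the 9 were above 1 CPM. DCN was at 39.0 CPM and LUM at 57.2 CPM in that library, and LUM was at 0 and 0.0111 CPM in the other SUM44F replicates. MM134 parental replicate 3 and MM134 LTED-D replicate 2 had sums of 36.74 and 28.72 CPM, and the remaining 23 samples had 5.103 to 23.74 CPM. Values without these 3 libraries are given beside the results whose calls or counts they changed. The leukocyte markers summed to 1.241 to 1.912 CPM in MM134 parental cells and 4.936 to 25.13 CPM in the MM134 LTED variants, where CD68 and LYZ were upregulated. Without the 3 libraries LYZ was not among the upregulated markers in LTED-D. The endothelial markers summed to 25.95 to 45.52 CPM in SUM44F and 1.565 to 11.24 CPM in the other groups. The part of these markers in the results below was not tested.

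The sequences that link these genes are shown first. The miR-200 family has 2 seeds (bases 2 to 8, in capitals), which differ at 1 base. The mature sequences are from RefSeq on GRCh38, and they are shown because ZEB1 and ZEB2 are their best-known targets. miR-200a, miR-200b and miR-429 lie on chromosome 1 and miR-200c and miR-141 on chromosome 12. MicroRNAs themselves were not measured here.
hsa-miR-141-3p: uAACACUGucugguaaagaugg
hsa-miR-200a-3p: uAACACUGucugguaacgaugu
hsa-miR-200b-3p: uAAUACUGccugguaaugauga
hsa-miR-200c-3p: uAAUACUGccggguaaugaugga
hsa-miR-429: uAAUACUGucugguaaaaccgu

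The 3′ UTR of ZEB1 (2540 bases after the stop codon in the canonical transcript) held 3 matches to the first seed, CAGTGTT, and 6 to the second, CAGTATT. The 3′ UTR of ZEB2 (5370 bases) held 4 and 5. One match of each kind is shown for each gene, on the strand of the gene with the match in capitals. A match is a description of the letters and not of a working site.
ZEB1 at chr10:31528036-31528057, plus strand: tcatcagaatCAGTGTTtgtga
ZEB1 at chr10:31527623-31527644, plus strand: tttatcttatCAGTATTatcac
ZEB2 at chr2:144389232-144389253, minus strand: aaattttgtaCAGTGTTaaggc
ZEB2 at chr2:144389048-144389069, minus strand: taccatacatCAGTATTtttat

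RefSeq promoter windows of 300 bases (250 before the start and 50 after, GRCh38.p14) were at hand for 3 of the 10 members, VIM, ZEB1 and ZEB2. They were searched on both strands for CACCTG, the E-box that ZEB and SNAI proteins bind, and its reverse complement CAGGTG. The windows at the canonical starts of VIM (chr10:17227991-17228290, plus strand) and ZEB2 (chr2:144520070-144520369, minus strand) held none of these letters, and that of ZEB1 held 3. Of all 35116 windows, 7231 (20.6%) held at least 1. The ZEB1 window is shown because ZEB1 is the transcription factor of the set that was downregulated in LTED variants of both lines, with the E-boxes in capitals.
ZEB1 promoter at chr10:31318966-31319265, plus strand: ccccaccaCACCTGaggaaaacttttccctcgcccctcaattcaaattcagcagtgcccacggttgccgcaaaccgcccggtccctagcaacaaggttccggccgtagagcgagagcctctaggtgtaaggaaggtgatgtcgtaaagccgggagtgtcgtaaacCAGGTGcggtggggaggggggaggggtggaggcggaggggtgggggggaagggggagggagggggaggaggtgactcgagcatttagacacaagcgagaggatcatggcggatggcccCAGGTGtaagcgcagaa

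Levels are given as CPM after TMM normalisation over all 9 groups (a scaling that sets most genes equal between samples), as mean ± SD. Per kilobase of the canonical transcript, which is the scale for comparing one gene with another, EPCAM had the highest level of the set in MM134 parental cells (164.5 CPM per kb), followed by VIM (61.4), ESRP1 (43.3), TWIST1 (24.7), ESRP2 (6.83) and OVOL1 (4.19). SNAI1, ZEB1 and ZEB2 were at 0.66, 0.31 and 0.21 CPM per kb. In SUM44F the order again began with EPCAM (369.2 CPM per kb) and ESRP1 (37.7), while VIM was at 7.17 CPM per kb. The ZEB and SNAI factors rested on few reads: ZEB1 had 10 to 217 counts per library, SNAI1 8 to 78 and ZEB2 56 to 356. RNA was taken from bulk cultures, so fewer expressing cells and less RNA per cell cannot be told apart.

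**Figure D1:**
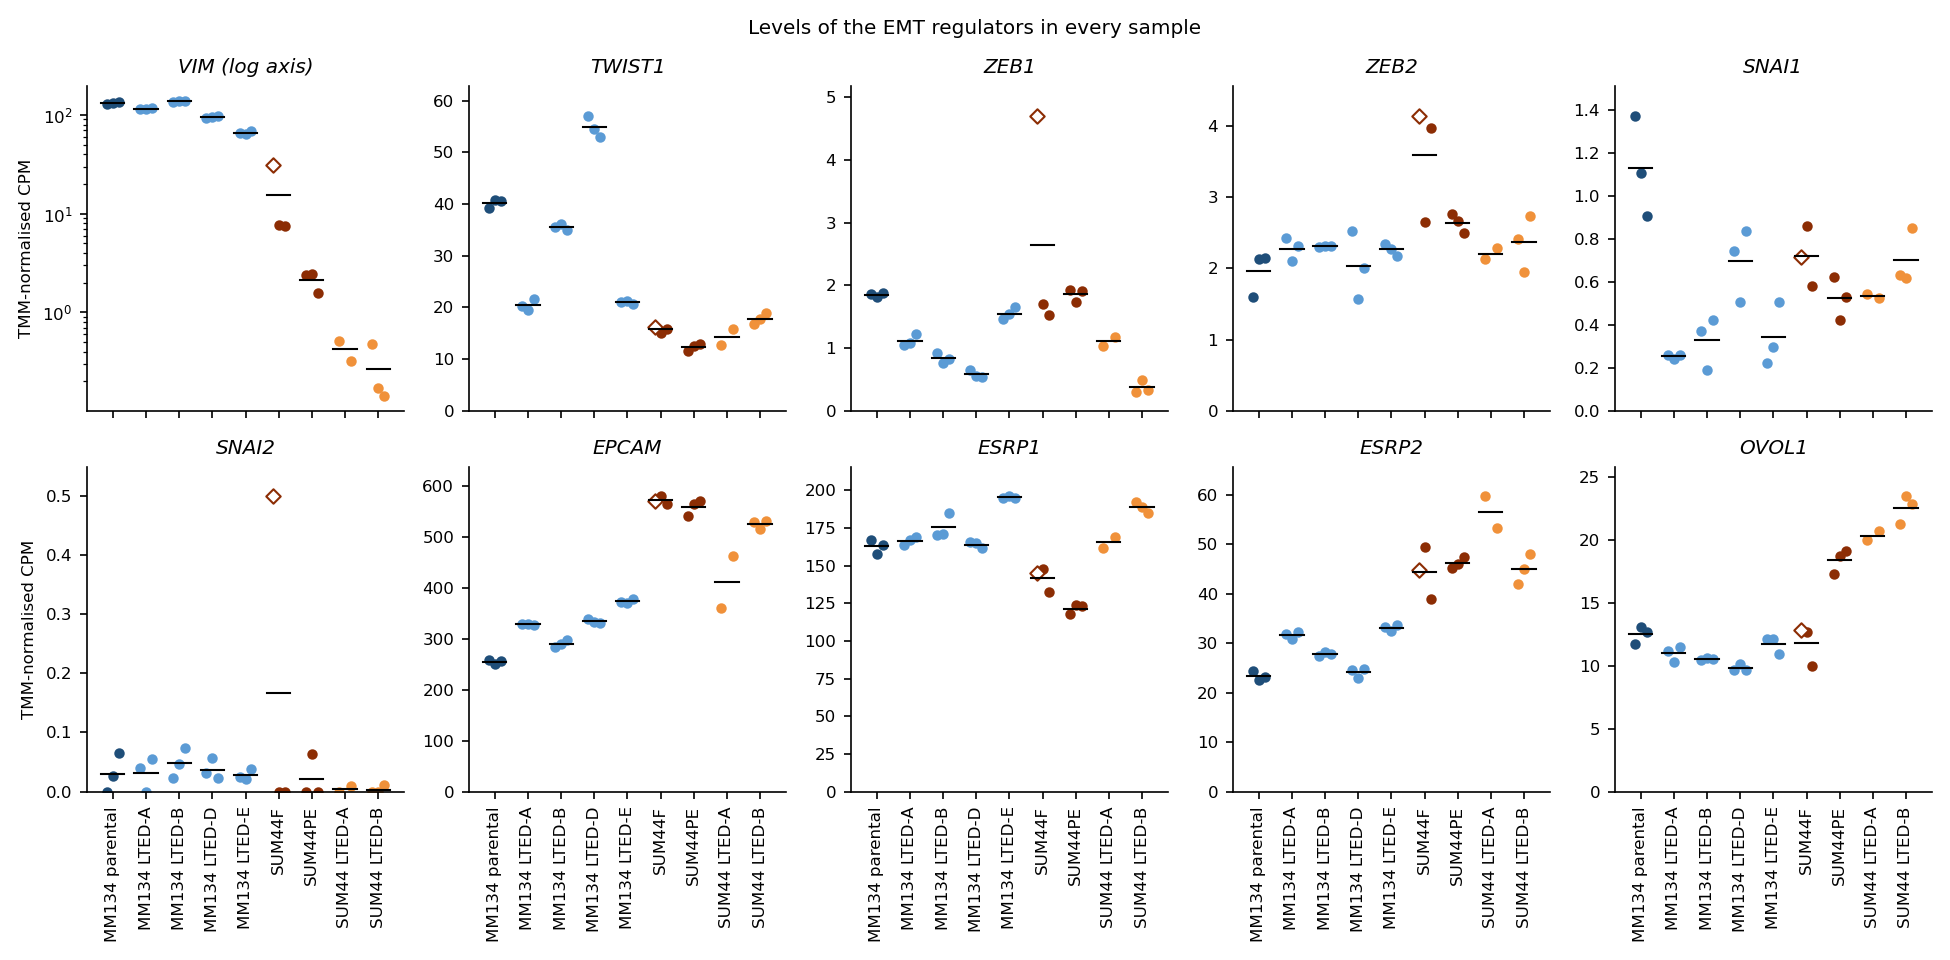
TMM-normalised CPM of the 10 members (y axis, 1 panel per gene, log axis for VIM) in each sample of the 9 groups (x axis). Points are samples, bars are group means and the open diamond is SUM44F replicate 1. The group means of VIM range from 137.1 CPM in MM134 LTED-B to under 1 CPM in the SUM44 LTED variants, and EPCAM stays above 250 CPM in every group.

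A gene was called a DE gene where its fold change was over 1.5 and its adjusted p under 0.001 (two-sided quasi-likelihood F-test of edgeR, with Benjamini-Hochberg adjustment over all genes tested), the thresholds of the study. Differences are log2 fold changes ± SE. All members but SNAI2 passed the filter on low counts in every fit and were tested (9 of 10). Of these 9, 3 were DE genes in MM134 LTED-A against MM134 parental cells (20.3% of all genes tested were), 2 in LTED-B (15.9%), 1 in LTED-D (17.6%) and 3 in LTED-E (19.0%). All of them were downregulated, as were 9.82%, 7.75%, 7.95% and 10.3% of all genes in these comparisons. In SUM44 LTED-A against SUM44F 2 members were DE genes (13.7% of all genes) and in SUM44 LTED-B 3 (17.3%). OVOL1 was upregulated in both (as were 6.39% and 8.69% of all genes) and VIM and, in SUM44 LTED-B, ZEB1 were downregulated (as were 7.28% and 8.57%). The 4 MM134 comparisons share the parental libraries, as do the 2 SUM44 comparisons. No member passed in the same direction in all 6 variants.

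**Figure D2:**
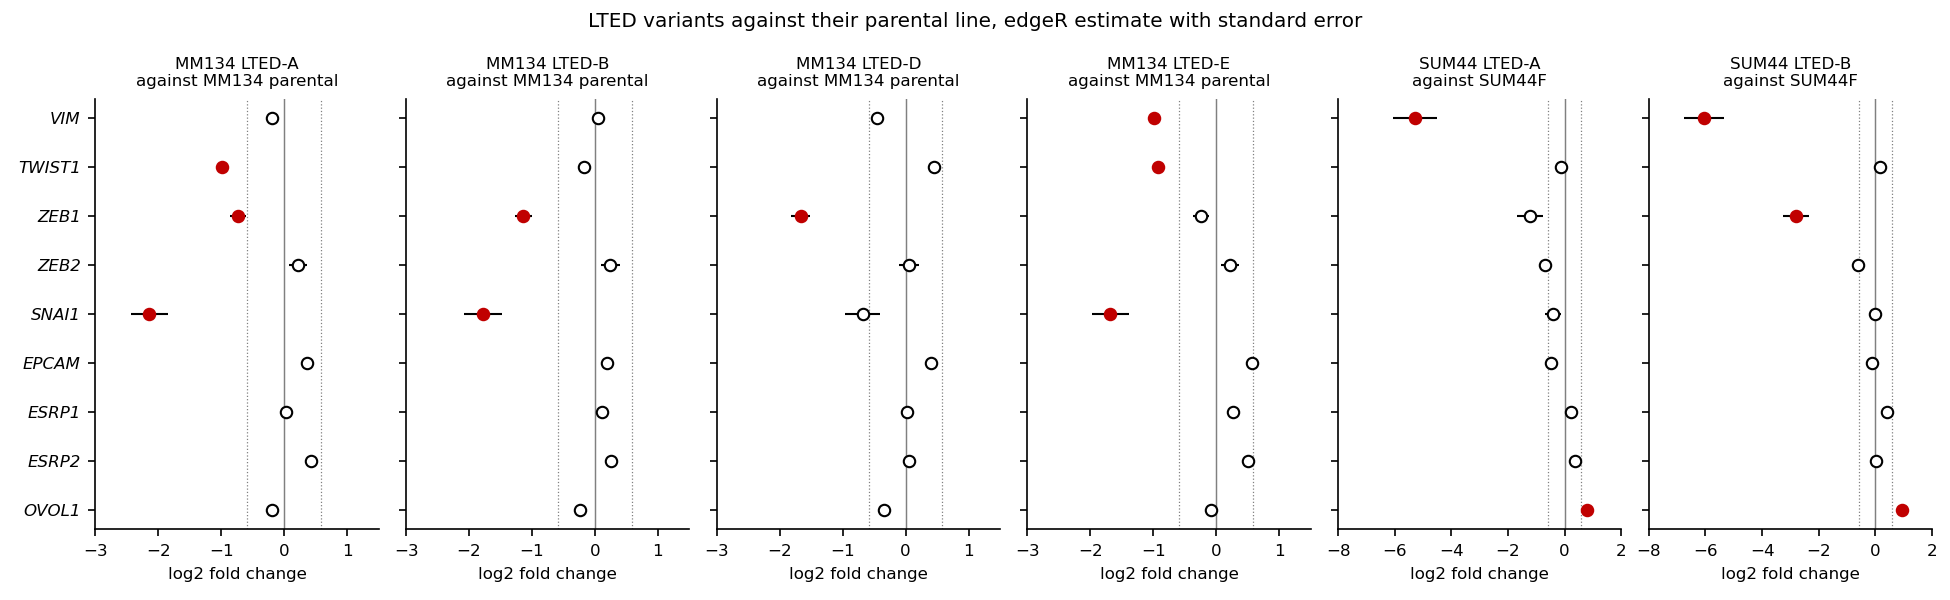
Log2 fold change ± SE (x axis) of the 9 tested members (y axis) in the 6 LTED variants against their parental cells (1 panel per variant). Filled red points are DE genes and dotted lines mark 1.5-fold. VIM is downregulated by over 5 log2 units in both SUM44 variants, SNAI1 is downregulated in 3 of the 4 MM134 variants, and ESRP1 and ESRP2 lie within the dotted lines in every panel.

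VIM (Ensembl ENSG00000026025, chr10:17228241-17237593, hg38) had the widest range of the set. The MM134 parental samples were at 129, 132 and 135 CPM. The LTED-A samples were at 115, 115 and 118 CPM, the LTED-B samples at 134, 139 and 138, the LTED-D samples at 94.1, 94.8 and 97.4, and the LTED-E samples at 65.2, 64.5 and 68.1. LTED-E lay lowest, 1.99-fold below the parental level, and LTED-B overlapped the parental samples. VIM was a DE gene in LTED-E alone among the MM134 variants (fell by 0.99 ± 0.03 on the log2 scale, adjusted p = 9.4e-16). In LTED-A and LTED-D the difference was -0.20 ± 0.03 and -0.46 ± 0.03 (adjusted p = 5.47e-06 and 9.63e-11), below the 1.5-fold minimum, and in LTED-B it was 0.06 ± 0.03 (adjusted p = 0.107, and -0.12 with library totals as the only scaling).

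SUM44 cells held far less VIM. The SUM44PE samples were at 2.39, 2.45 and 1.59 CPM, and the SUM44F samples at 31.2, 7.62 and 7.54. The high value is replicate 1, the library with fibroblast markers, which stood 4.11-fold above the mean of the other SUM44F replicates. The SUM44 LTED-A samples were at 0.52 and 0.32 CPM and the SUM44 LTED-B samples at 0.48, 0.17 and 0.14 CPM, so both variants lay below every parental sample of either culture. These levels rest on 21 and 37 counts in SUM44 LTED-A and 7 to 16 in SUM44 LTED-B, so fold changes measured from them are known only roughly. VIM was downregulated 38.7-fold in SUM44 LTED-A (log2 fold change -5.27 ± 0.78, adjusted p = 0.000362) and 66.0-fold in SUM44 LTED-B (-6.04 ± 0.71, adjusted p = 5.71e-05). Without the 3 libraries with fibroblast markers it was downregulated 19.0-fold (adjusted p = 1.4e-05) and 32.4-fold (adjusted p = 1.94e-06). In SUM44 LTED-A the call was lost when either of its samples was left out, replicate 1 (adjusted p = 0.00757) or the merged replicates 2 and 3 (adjusted p = 0.014). In such fits the lone sample of SUM44 LTED-A is assumed to vary like the other groups.

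**Figure D3:**
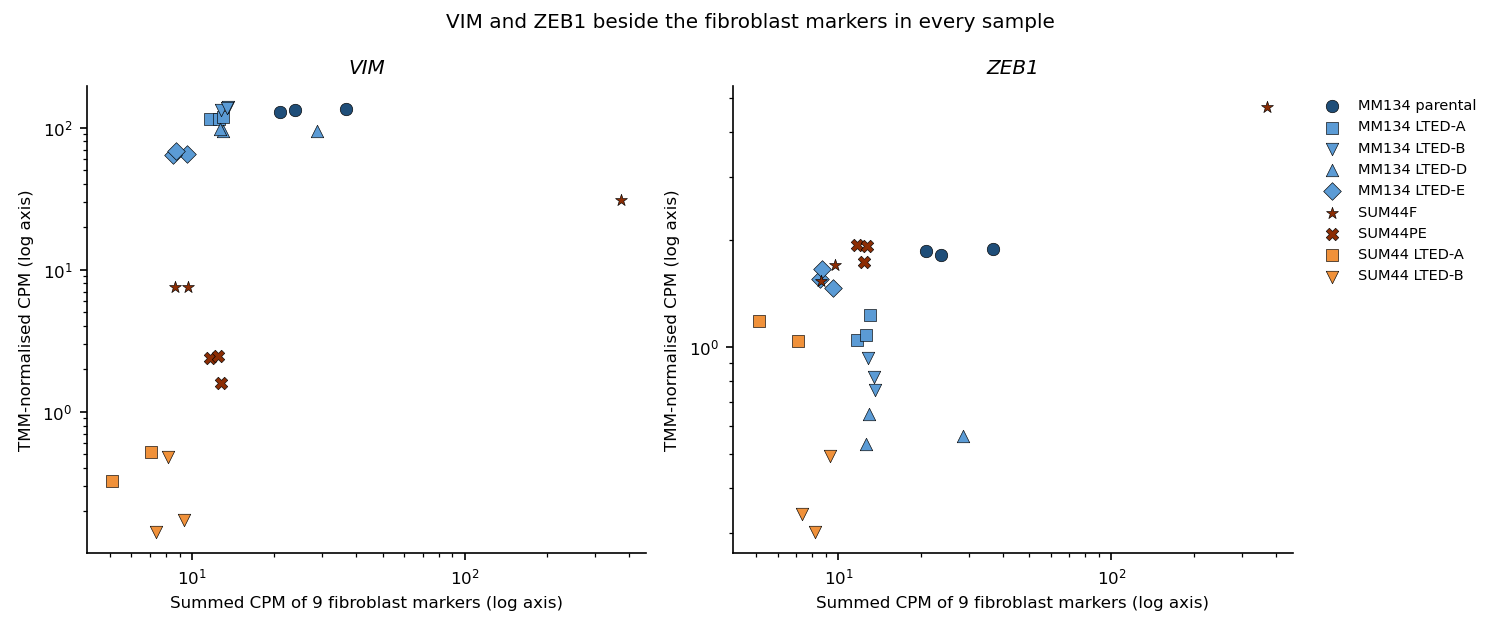
CPM of VIM and of ZEB1 (y axes, log) against the summed CPM of 9 fibroblast markers (x axis, log), 1 point per sample. SUM44F replicate 1 lies at 372.8 CPM on the x axis, and the other 25 samples between 5.103 and 36.74 CPM.

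Against SUM44PE, the culture with no such library, VIM differed by -2.40 in SUM44 LTED-A (adjusted p = 0.0157) and by -3.18 ± 0.69 in SUM44 LTED-B (adjusted p = 0.00181), which missed the threshold of 0.001. SUM44PE itself differed from SUM44F by -2.86 ± 0.52 (adjusted p = 0.00136), and by -1.82 ± 0.27 without the 3 libraries, where the smaller spread made VIM a DE gene (adjusted p = 0.000429, 3.54-fold lower in SUM44PE). MM134 parental cells had 8.80-fold more VIM than SUM44F (3.14 ± 0.31, adjusted p = 2.78e-09), and 17.1-fold more without the 3 libraries. In the order of the 9 group means, from LTED-B of MM134 at 137.1 ± 2.87 CPM to SUM44 LTED-B at 0.27 ± 0.19 CPM, a 516-fold range, 2 of the 8 steps between neighbours passed the test. These were the step from MM134 LTED-E to SUM44F (2.13 ± 0.30, adjusted p = 1.09e-06) and from SUM44F to SUM44PE (2.80 ± 0.40, adjusted p = 5.8e-06) in the fit of all groups. VIM-AS1, an RNA on the opposite strand, held 3.76% as many counts as VIM over all libraries. The strand setting of the quantification is not given in the sources used here, so reads of a gene and of its antisense partner may not be told apart.

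ZEB1 (ENSG00000148516, chr10:31318495-31529814, hg38), a repressor of CDH1 and of the miR-200 genes, was low and fell in several variants. The MM134 parental samples were at 1.86, 1.81 and 1.88 CPM. LTED-A samples had 1.04, 1.08 and 1.23 CPM, LTED-B samples 0.93, 0.76 and 0.82, LTED-D samples 0.65, 0.56 and 0.53, and LTED-E samples 1.46, 1.55 and 1.65. All 12 samples of the variants lay below the parental range. ZEB1 was downregulated in LTED-A (-0.74 ± 0.13, adjusted p = 6.54e-05), LTED-B (-1.14 ± 0.14, adjusted p = 1.43e-06) and LTED-D (-1.66 ± 0.15, 3.17-fold, adjusted p = 2.48e-08), and the difference in LTED-E did not pass (-0.24 ± 0.13, adjusted p = 0.171). The call in LTED-A was lost with DESeq2 (adjusted p = 0.00144).

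In SUM44 the ZEB1 level of SUM44F depended on replicate 1. The SUM44F samples were at 4.71, 1.70 and 1.53 CPM, the SUM44PE samples at 1.93, 1.73 and 1.92, the SUM44 LTED-A samples at 1.04 and 1.18, and the SUM44 LTED-B samples at 0.30, 0.49 and 0.34. Both variants lay below all parental samples. ZEB1 was downregulated in SUM44 LTED-B (-2.80 ± 0.45, 6.95-fold, adjusted p = 0.000492), and also without the 3 libraries (4.28-fold, adjusted p = 7.07e-05) and against SUM44PE (-2.27 ± 0.42, adjusted p = 0.000538), although not when any 1 of the SUM44 LTED-B samples was left out (adjusted p = 0.00182 to 0.00428). In SUM44 LTED-A it differed by -1.22 ± 0.45 (adjusted p = 0.0569), and by -0.52 without the 3 libraries (adjusted p = 0.137). SUM44PE and MM134 parental cells differed from SUM44F by -0.51 and -0.49 (adjusted p = 0.364 and 0.115), and without the 3 libraries these differences had the opposite sign (0.20 and 0.18). ZEB1-AS1, which starts at the ZEB1 promoter on the other strand, held 358.9% as many counts as ZEB1. MM134 parental cells held 7.04 ± 0.71 CPM of it, LTED-D, the MM134 variant with the least ZEB1, held 2.65 ± 0.11 CPM, and it was at 2.85 ± 0.16 CPM in SUM44F and 3.04 ± 0.37 CPM in SUM44 LTED-B.

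ZEB2 (ENSG00000169554, chr2:144364364-144521057, hg38), the second ZEB repressor, was nearly level over the 9 groups, with a 1.83-fold range of group means. MM134 parental samples had 1.60, 2.13 and 2.14 CPM, and the samples of the 4 MM134 variants lay between 1.57 and 2.52 CPM, across that range. SUM44F samples had 4.14, 2.66 and 3.96 CPM, SUM44PE samples 2.77, 2.66 and 2.50, SUM44 LTED-A samples 2.12 and 2.29, and SUM44 LTED-B samples 2.41, 1.95 and 2.73. No LTED variant passed the test. The differences were 0.06 to 0.24 in MM134 (adjusted p = 0.201 to 0.796) and -0.70 ± 0.22 and -0.60 ± 0.20 in SUM44 LTED-A and LTED-B (adjusted p = 0.0314 and 0.0305). MM134 parental cells had less ZEB2 than SUM44F (-0.88 ± 0.17, adjusted p = 6.23e-05), a call that was lost in the fit of these groups alone (adjusted p = 0.00701) and without MM134 parental replicate 1 (adjusted p = 0.00101).

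SNAI1 (ENSG00000124216, chr20:49982980-49988886, hg38), the Snail repressor, was downregulated in MM134 variants and not in SUM44 variants. MM134 parental samples had 1.37, 1.11 and 0.91 CPM. LTED-A samples had 0.26, 0.24 and 0.26 CPM, LTED-B samples 0.37, 0.19 and 0.42, LTED-D samples 0.74, 0.51 and 0.84, and LTED-E samples 0.22, 0.30 and 0.51. Each sample of the variants lay below the 3 parental samples. SNAI1 was a DE gene in LTED-A (-2.14 ± 0.29, 4.42-fold, adjusted p = 4.35e-06), LTED-B (-1.78 ± 0.30, 3.44-fold, adjusted p = 7.15e-05) and LTED-E (-1.68 ± 0.29, 3.21-fold, adjusted p = 8.63e-05), and the difference in LTED-D did not pass (-0.68 ± 0.28, adjusted p = 0.0476). In SUM44 the SUM44F samples were at 0.72, 0.86 and 0.58 CPM, SUM44PE at 0.62, 0.42 and 0.53, SUM44 LTED-A at 0.54 and 0.53, and SUM44 LTED-B at 0.63, 0.62 and 0.85. The SUM44 LTED-B samples overlapped SUM44F and the SUM44 LTED-A samples lay just below it, within the SUM44PE range, and the differences from SUM44F were -0.41 (adjusted p = 0.275) and 0.00 (adjusted p = 0.995).

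SNAI2 (ENSG00000019549, chromosome 8), which encodes Slug, was at the limit of detection. It had at most 3 counts in 25 of the 27 libraries, and in the samples other than SUM44F replicate 1 it lay between 0 and 0.0746 CPM. SUM44F replicate 1, the library with fibroblast markers, held 23 counts (0.50 CPM), while both other SUM44F replicates held 0. SNAI2 did not pass the filter on low counts, so no fold change is given.

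TWIST1 (ENSG00000122691, chr7:19020991-19117636, hg38), a basic helix-loop-helix factor of mesoderm, was well expressed in both lines and moved in either direction among MM134 variants. MM134 parental samples had 39.2, 40.8 and 40.6 CPM. LTED-A samples had 20.3, 19.5 and 21.6 CPM, LTED-B samples 35.5, 36.2 and 34.9, LTED-D samples 57.1, 54.4 and 53.0, and LTED-E samples 21.1, 21.2 and 20.7. LTED-A and LTED-E overlapped each other well below the parental samples, and LTED-D lay above them. TWIST1 was downregulated in LTED-A (-0.98 ± 0.04, 1.97-fold, adjusted p = 1.76e-13) and LTED-E (-0.93 ± 0.04, 1.91-fold, adjusted p = 5.64e-13). In LTED-D it was higher by 0.46 ± 0.04 (adjusted p = 9.41e-09), below the 1.5-fold minimum, and in LTED-B it differed by -0.18 (adjusted p = 0.00106).

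TWIST1 also differed among the variants. It was a DE gene in 5 of the 6 pairs of MM134 variants, for example 1.44 lower in LTED-A than in LTED-D and 1.39 higher in LTED-D than in LTED-E on the log2 scale, and LTED-A and LTED-E was the pair that did not pass. Of all genes tested, 7.06% were DE genes between LTED-A and LTED-B, 9.88% between LTED-A and LTED-D, 7.84% between LTED-A and LTED-E, 7.40% between LTED-B and LTED-D, 9.78% between LTED-B and LTED-E and 11.6% between LTED-D and LTED-E. ZEB1 was a DE gene in 3 pairs, VIM in 2 and SNAI1 in 1. In SUM44 the TWIST1 levels were 16.2, 15.1 and 15.8 CPM in SUM44F, 11.6, 12.6 and 12.9 in SUM44PE, 12.8 and 15.7 in SUM44 LTED-A, and 16.7, 17.8 and 18.8 in SUM44 LTED-B. The differences from SUM44F were -0.14 (adjusted p = 0.38) and 0.18 (adjusted p = 0.162), and no member differed between the SUM44 variants by the edgeR test (7.42% of all genes did, and 5 members had an unadjusted p under 0.05). TWIST1 was 2.56-fold higher in MM134 parental cells than in SUM44F (1.35 ± 0.06, adjusted p = 1.05e-15).

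EPCAM (ENSG00000119888, chr2:47345158-47387601, hg38) was the most abundant member. MM134 parental samples had 257, 251 and 255 CPM, LTED-A samples 330, 329 and 328, LTED-B samples 283, 289 and 298, LTED-D samples 339, 333 and 330, and LTED-E samples 372, 370.2 and 377. Every sample of the 4 variants was above every parental sample. The differences were 0.36 ± 0.02, 0.19, 0.40 and 0.56 in LTED-A, -B, -D and -E (adjusted p = 1.4e-10, 1.38e-06, 4.12e-11 and 2.53e-13), and all 4 stayed under the 1.5-fold minimum, the largest at 1.48-fold. In SUM44 the levels were 570, 579 and 565 CPM in SUM44F, 540, 564 and 570 in SUM44PE, 360.0 and 461 in SUM44 LTED-A, and 528, 515 and 531 in SUM44 LTED-B. SUM44 LTED-A lay lowest but with samples far apart (-0.47 ± 0.11, adjusted p = 0.00733, and -0.67, adjusted p = 0.000211, with replicate 1 as its only sample, assumed to vary like the other groups), and SUM44 LTED-B differed by -0.12 (adjusted p = 0.339). SUM44F had 2.24-fold more EPCAM than MM134 parental cells (-1.17 ± 0.06 for MM134 against SUM44F, adjusted p = 2.42e-15).

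ESRP1 (ENSG00000104413, chromosome 8) and ESRP2 (ENSG00000103067, chr16:68229033-68238102, hg38) were expressed in all 9 groups and passed the fold minimum in no LTED variant against its parental cells. ESRP1 was at 167, 158 and 164 CPM in MM134 parental cells and between 162 and 196 CPM in the MM134 variants. In SUM44 its samples lay in order from 118, 124 and 123 CPM in SUM44PE to 145, 148 and 133 in SUM44F, 162 and 169 in SUM44 LTED-A and 192, 189 and 185 in SUM44 LTED-B, with no overlap between groups. Against SUM44F the difference was 0.22 in SUM44 LTED-A (adjusted p = 0.0414) and 0.41 ± 0.07 in SUM44 LTED-B (adjusted p = 0.000649, under 1.5-fold), while against SUM44PE it reached 0.66 ± 0.06 in SUM44 LTED-B, a DE gene (adjusted p = 2e-06, 20.2% of all genes called). In MM134 the ESRP1 differences were 0.02 to 0.27, and those of LTED-A, LTED-B and LTED-D had the opposite sign with library totals as the only scaling (-0.14, -0.07 and -0.18).

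ESRP2 samples were at 24.4, 22.6 and 23.2 CPM in MM134 parental cells, 31.9, 30.9 and 32.4 in LTED-A, 27.5, 28.3 and 27.7 in LTED-B, 24.7, 23.1 and 24.9 in LTED-D and 33.4, 32.4 and 33.6 in LTED-E. LTED-D overlapped the parental samples and the other variants lay above them. The differences were 0.43 ± 0.04, 0.26 and 0.51 in LTED-A, LTED-B and LTED-E (adjusted p = 1.11e-08, 1.83e-05 and 1.34e-09), below 1.5-fold, and 0.06 in LTED-D (adjusted p = 0.211, and -0.14 with library totals only). SUM44 samples were at 44.8, 49.4 and 39.0 CPM in SUM44F, 45.3, 46.0 and 47.5 in SUM44PE, 59.7 and 53.3 in SUM44 LTED-A, and 42.1, 44.9 and 48.0 in SUM44 LTED-B, with differences from SUM44F of 0.35 (adjusted p = 0.0232) and 0.02 (adjusted p = 0.877). MM134 parental cells had less ESRP2 than SUM44F (-0.92 ± 0.07, 1.90-fold, adjusted p = 6.71e-12). NFATC3 on the opposite strand and a long noncoding RNA on the same strand overlap ESRP2 and held 64.0% and 46.3% as many counts as ESRP2, so part of its counts is uncertain.

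OVOL1 (ENSG00000172818, chr11:65787063-65797214, hg38), a zinc finger repressor of ZEB1 that keeps cells epithelial, was the member upregulated in both SUM44 variants. SUM44F samples had 12.8, 12.7 and 10.0 CPM, SUM44PE samples 17.3, 18.7 and 19.1, SUM44 LTED-A samples 19.97 and 20.7, and SUM44 LTED-B samples 21.3, 23.5 and 22.9. SUM44F stood alone below the others, with no overlap. OVOL1 was higher than in SUM44F in SUM44 LTED-A (0.78 ± 0.11, 1.72-fold, adjusted p = 0.000349), SUM44 LTED-B (0.93 ± 0.10, 1.91-fold, adjusted p = 4.21e-05) and SUM44PE (0.63 ± 0.10, adjusted p = 0.000427), and it was the only member called in the last comparison (5.57% of all genes were), while VIM was also called without the 3 libraries with fibroblast markers. Both SUM44 LTED-A samples were needed for its call (adjusted p = 0.0023 and 0.00255 without either, with the lone sample assumed to vary like the other groups), and the call in SUM44PE was lost without SUM44PE replicate 2 or 3 or SUM44F replicate 3 (0.55 to 0.61 on the log2 scale). Against SUM44PE neither SUM44 variant differed in OVOL1 by the test (14.3% and 20.2% of all genes did in SUM44 LTED-A and LTED-B). In MM134 the levels were 11.7, 13.1 and 12.7 CPM in parental cells and 9.64 to 12.1 CPM in the variants, with differences of -0.08 to -0.34 (adjusted p = 0.000152 to 0.278) under the fold minimum.

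Over the 9 tested members, 72 steps between neighbouring groups in the order of levels were tested, and 3 passed: the 2 of VIM above and, for TWIST1, MM134 LTED-B over MM134 LTED-E (0.76 ± 0.06, adjusted p = 4.39e-10). Neighbours were picked by the same means that were tested, which keeps the steps small. The share of all genes was not taken at each of these steps, so the count is not a result about the members. For ZEB1, ZEB2 and SNAI1 no step between neighbours had an adjusted p under 0.001, so their order is fixed only between groups that lie further apart. For EPCAM, ESRP1, ESRP2 and OVOL1 the steps with an adjusted p under 0.001 (1, 2, 1 and 1 of 8) were all under 1.5-fold. All steps were tested in the fit of all groups. Its SE was larger than in the MM134 fit for some differences within MM134. EPCAM in LTED-B against parental cells had an adjusted p of 0.00842 there and 1.38e-06 in the MM134 fit (edgeR). For VIM in LTED-D against LTED-E these were 0.164 and 2.17e-11. A step that did not pass here is thus not shown to be level.

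Whether the effect of LTED differed between the lines was tested by subtracting the mean effect in the 2 SUM44 variants from the mean effect in the 4 MM134 variants. Such a difference was found for 4 members (4 of 9, against 21.0% of all genes). VIM was downregulated less in MM134 than in SUM44 (5.28 ± 0.53, adjusted p = 6.66e-09), and SNAI1 more (-1.38 ± 0.32, adjusted p = 0.000812). EPCAM differed by 0.67 ± 0.07 (adjusted p = 5.17e-09) and OVOL1 by -1.08 ± 0.09 (adjusted p = 5.56e-10). ZEB1 (1.05 ± 0.34, adjusted p = 0.0141) and ZEB2 (0.82 ± 0.20, adjusted p = 0.00136) did not pass, nor did the ESRP genes or TWIST1 (-0.44, under the fold minimum), although ZEB1 passed without SUM44F replicate 3 and ZEB2 without any 1 of MM134 LTED-D replicate 2, SUM44F replicate 2 and SUM44 LTED-B replicate 3. Without the 3 libraries with fibroblast markers, the difference was 4.29 for VIM, again called, 0.34 for ZEB1 (adjusted p = 0.208), and -1.50 for SNAI1, no longer called (adjusted p = 0.00118). The call of SNAI1 was also lost in 13 of the fits that left out 1 sample (adjusted p = 0.00102 to 0.00468), and EPCAM fell under the fold minimum without SUM44 LTED-A replicate 1 (0.54). Between the parental cells of the lines 5 members differed (38.1% of all genes did): VIM and TWIST1 were higher in MM134, and EPCAM, ESRP2 and ZEB2 were higher in SUM44F.

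The genes on which these regulators act were followed with lists of their known targets and partners. CDH1, whose product is lost in ILC, was still measured at 8.85 to 22.7 CPM in the group means and was a DE gene among the LTED variants only in SUM44 LTED-B (-0.63 ± 0.09, adjusted p = 0.000284). That call was lost without the 3 libraries with fibroblast markers (-0.57 ± 0.10, adjusted p = 0.00132). Of 28 epithelial junction and surface genes, 27 were tested in MM134, and 14, 11, 9 and 9 were upregulated in LTED-A, -B, -D and -E with none downregulated by the edgeR test (3, 1, 2 and 3 at an unadjusted p under 0.05). Of all genes tested, 10.5%, 8.11%, 9.63% and 8.71% were upregulated. The medians of the list were 0.60, 0.56, 0.49 and 0.43, beside medians of -0.0067, 0.0212, -0.0282 and 0.0173 over all genes tested. TJP1, the tight junction scaffold ZO-1, rose by 4.38 to 4.44 on the log2 scale in all 4 variants, and MAL2, a protein of apical transport, by 2.70 ± 0.03 in LTED-A and 2.94 ± 0.03 in LTED-B. CD24, LLGL2, MAL2, PKP2 and TJP1 were upregulated in all 4. In LTED-D 10 of the list were upregulated without the 3 libraries with fibroblast markers. In SUM44 LTED-A and LTED-B 3 and 9 of the 28 were upregulated and 2 and 3 downregulated (medians 0.20 and 0.29, beside -0.0568 and -0.0931 over all genes), with the polarity gene PARD6B up by 1.27 ± 0.09 and 1.74 ± 0.08 and the surface marker CD24 down (-1.48 ± 0.13 and -2.16 ± 0.11). Of all genes 6.39% and 8.69% were upregulated and 7.28% and 8.57% downregulated in these comparisons. In each variant 2 of the list, CD24 and PATJ, were downregulated without the 3 libraries with fibroblast markers.

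Of 20 mesenchymal genes, 17 were tested in MM134, and 10, 10, 7 and 10 were downregulated in LTED-A, -B, -D and -E, with 1, 1, 2 and 2 upregulated and list medians of -1.63, -1.71, -0.52 and -0.83. Of all genes tested 9.82%, 7.75%, 7.95% and 10.3% were downregulated, with the medians near 0 given above. Without the 3 libraries with fibroblast markers 10, 11, 7 and 10 of 16 tested were downregulated and 1, 0, 2 and 2 upregulated, with medians of -1.37, -1.52, -0.55 and -0.98. The matrix protein SPARC was downregulated in LTED-A (-5.50 ± 0.23), LTED-B (-4.76 ± 0.23) and LTED-E (-6.15 ± 0.26), and CD44, the hyaluronan receptor, in LTED-A (-6.16 ± 0.27) and LTED-D (-5.45 ± 0.27). CALD1, CD44, FBN1, FN1, SPARC and TNC were among those downregulated in all 4. CDH2 (N-cadherin), the cadherin of mesenchymal cells, was at 52.8 CPM in MM134 parental cells, 8.58 in LTED-A, 6.96 in LTED-B and 1.01 in LTED-E, and stayed at 51.4 CPM in LTED-D. In SUM44 LTED-A and LTED-B 5 and 3 of 16 tested were downregulated and 1 in each upregulated (medians -1.41 and -1.07), the latter being the integrin ITGA5 (1.75 ± 0.16 and 2.18 ± 0.15). These SUM44 counts depended on the libraries with fibroblast markers. Without them 4 were downregulated and 1 upregulated in SUM44 LTED-A (median -0.48), and 3 were downregulated and 4 upregulated in SUM44 LTED-B (median -0.06). The shares of all genes were those given for the junction genes.

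**Figure D4:**
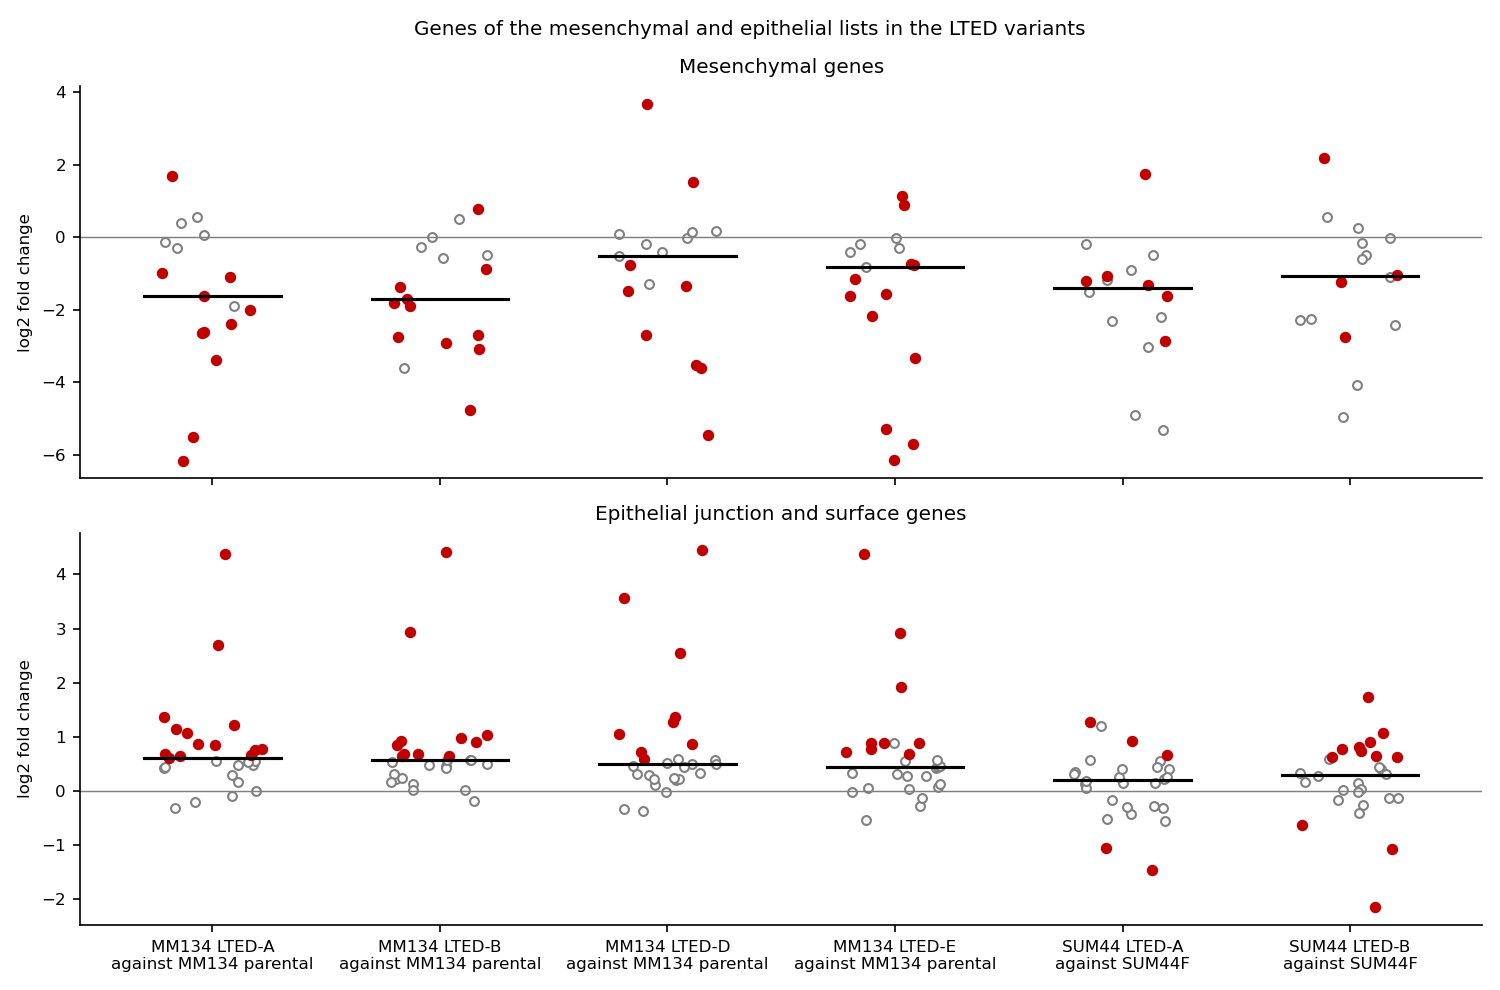
Log2 fold change (y axis) of the tested epithelial junction and surface genes and mesenchymal genes in the 6 LTED variants against parental cells (x axis). Points are genes, filled points are DE genes and the bar is the list median. In MM134 the epithelial medians lie at 0.43 to 0.60 and the mesenchymal medians at -0.52 to -1.71.

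The partners of the members moved less evenly. Among 11 epithelial transcription factors, KLF4, EHF and ELF3 were upregulated in all 4 MM134 variants (KLF4 by 1.81 ± 0.08 in LTED-D to 4.01 ± 0.07 in LTED-E), and 4 factors in each variant rose while 3, 1, 0 and 2 fell in LTED-A, -B, -D and -E (8.11% to 10.5% of all genes rose and 7.75% to 10.3% fell). Without the 3 libraries with fibroblast markers those that fell were GATA3, GRHL3 and OVOL2 in LTED-A, GRHL3 in LTED-B, and GATA3 and GRHL3 in LTED-E. In SUM44 LTED-A 2 rose and 5 fell, with the grainyhead factors GRHL3 and GRHL1 among the latter (-2.02 ± 0.18 and -1.90 ± 0.10), and in SUM44 LTED-B GATA3 rose and ELF3 fell. Of all genes 6.39% and 8.69% rose and 7.28% and 8.57% fell in SUM44 LTED-A and LTED-B. Without the 3 libraries with fibroblast markers 0 rose and the 5 fell in SUM44 LTED-A, and in SUM44 LTED-B ELF3 fell and the call of GATA3 was lost (0.81 ± 0.17, adjusted p = 0.00337). Of 11 other EMT transcription factors 7 were tested in MM134, and SOX9 was upregulated in all 4 variants (3.05 ± 0.12 in LTED-B to 3.44 ± 0.12 in LTED-A) and in both SUM44 variants, while TCF4 rose in SUM44 LTED-A (1.14 ± 0.08) and fell in SUM44 LTED-B (-1.39 ± 0.07). The call of SOX9 in SUM44 LTED-B was lost without the 3 libraries with fibroblast markers (0.79 ± 0.15, adjusted p = 0.00184).

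Of 16 genes of the TGF-beta pathway, an inducer of SNAI and ZEB factors, 15 were tested in MM134 and 2 or 3 rose and 4 fell in each variant, against 8.11% to 10.5% and 7.75% to 10.3% of all genes. Without the 3 libraries with fibroblast markers 1, 1, 1 and 2 rose and 4 fell in LTED-A, -B, -D and -E. TGFBR1 was upregulated and SMAD3, SMAD7 and TGFB1 downregulated in all 4. In SUM44 the DE genes were the same 3 of 16 in both variants, TGFB2, TGFBR2 and TGFBR3, all downregulated, with differences of -4.93 ± 0.31 and -5.85 ± 0.30 for TGFB2. Of all genes 7.28% and 8.57% fell in SUM44 LTED-A and LTED-B. Of 11 repressor cofactors of ZEB and SNAI, 1 fell in MM134 LTED-A and in SUM44 LTED-A (RCOR1 in each, -0.62 ± 0.04 and -0.67 ± 0.07), and 2 rose in SUM44 LTED-B (HDAC1 and EZH2). Of all genes 9.82% and 7.28% fell in these LTED-A comparisons, and 8.69% rose in SUM44 LTED-B. Of 9 genes of SNAI protein turnover, 1 passed in each MM134 variant, the kinase PRKD1 (from -1.54 ± 0.08 in LTED-D to -3.26 ± 0.10 in LTED-B). Of all genes 7.75% to 10.3% fell in these variants, so this count is near the share of all genes.

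MIR205HG, the host transcript of miR-205, which also targets ZEB1 and ZEB2, was upregulated in LTED-B, -D and -E of MM134 (1.49 ± 0.09, 1.20 ± 0.09 and 0.85 ± 0.09) and downregulated in SUM44 LTED-A and LTED-B (-0.68 ± 0.09 and -0.83 ± 0.08). MIR200CHG, the host of miR-200c and miR-141 whose seeds are shown above, differed by -0.32 to 0.12 in the LTED variants and was not a DE gene there. Of 9 other splicing factors of EMT, QKI was upregulated in all 4 MM134 variants and downregulated in both SUM44 variants, with MBNL2 also down in SUM44 (-3.84 ± 0.12 and -4.04 ± 0.10). Without the 3 libraries with fibroblast markers, 3, 3, 1 and 2 of the 9 rose and 0, 0, 0 and 1 fell in MM134 LTED-A, -B, -D and -E. In SUM44 LTED-A and LTED-B 0 and 1 rose and 2 fell in each. Of all genes 14.6% to 19.0% passed in either direction in MM134, and 12.1% and 15.8% in SUM44. Most of this list was thus not called, and ESRP1 and ESRP2 also passed in none of these comparisons.

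The genes whose group means were most like a member in pattern were found by Pearson correlation of mean log2(CPM + 1) over the 9 groups, among 14407 protein-coding genes. The groups come from 2 cell lines, so such values describe a shared pattern of line and variant, and no p is given. VIM ran closest to TDRKH (r = 0.992), ISCA1 (0.988) and ZNF224 (0.986), and EPCAM to CCDC13 (0.986), STK17A (0.985) and KTN1 (0.978). For ZEB1 they were TMEM236, TAF8 and TOGARAM2 (0.978 to 0.949), for ZEB2 OVCH1, ITGA1 and ERV3-1 (0.978 to 0.973), and for SNAI1 USP22, AIF1L and LAMC1 (0.974 to 0.948). For TWIST1 they were SLC30A4, PI15 and DHX40 (0.961 to 0.96), for ESRP1 INTS8, TGS1 and CHCHD1 (0.976 to 0.954), for ESRP2 BCL9L, SLC6A8 and ATXN7 (0.974 to 0.972), and for OVOL1 NUF2, P2RY10 and FANCA (0.973 to 0.961). No member was among the closest genes of another member.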

How the data were processed

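RNA-Seq was done on 27 libraries of MM134 and SUM44 cells with a stranded total RNA kit. Salmon 0.6.0 was run by the authors against hg38, and the deposited table holds its expected counts for 60619 Ensembl genes. The strand setting is not given in the sources used here. Symbols were taken from GENCODE by Ensembl ID for 56434 genes.

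Counts were rounded to whole numbers. Genes were filtered with filterByExpr, scaled by TMM and given the two-sided quasi-likelihood F-test of edgeR 4.0.16 in R 4.3.3, with p-values adjusted by Benjamini-Hochberg over all genes tested. One fit held the MM134 groups (26061 genes), 1 SUM44F and its LTED variants (26834), 1 added SUM44PE (27457), and 1 held all groups (29608) and gave levels, cell line comparisons and the interaction. SE is the log2 fold change over the root of F. The scripts were checked on simulated data. Totals of 28583554 to 134882175 counts set the precision, and a gene of 10 counts is known only roughly. Replicates 2 and 3 of SUM44 LTED-A were averaged. Replicate numbers do not pair samples.

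The members and the 13 other gene lists were chosen with earlier results of these data known. Text names all members, CDH1, genes called in every variant of a line, the 2 largest changes among called genes of a list in a comparison, and the 3 genes most like each member. CDH2 levels, QKI, DCN, LUM and the epithelial transcription factors that fell in MM134 were named after their values were seen. Alternatives were no filter, at least 10 counts in every sample, RLE size factors, DESeq2 1.42.0, other thresholds, a replicate block, smaller fits and each sample left out. Library totals as the only scaling, and the fit without 3 libraries, were chosen after seeing the data. Results for some single genes of the lists are left out of the text.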

Additional observations from a re-analysis of the deposited data

Results flagged for a closer look

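The effect of LTED differed between MM134 and SUM44 for 4 members by a test of the difference itself, an interaction contrast in edgeR over all 29608 genes tested (21.0% of genes passed it). The effect in MM134 minus the effect in SUM44 was 5.28 for VIM, -1.38 for SNAI1, 0.67 for EPCAM and -1.08 for OVOL1 on the log2 scale. The SNAI1 call did not hold throughout: it was lost without the 3 libraries with fibroblast markers (-1.50, adjusted p = 0.00118 in edgeR) and in 13 of the fits that left out 1 sample. EPCAM fell under the fold minimum (0.54) without SUM44 LTED-A replicate 1, and VIM was at 4.29 without the 3 libraries. VIM was downregulated in both SUM44 variants. It was higher in all MM134 LTED samples than in any SUM44 LTED sample, but this gap is not a measure of the effect of LTED. MM134 parental cells already had 8.80-fold more VIM than SUM44F (17.1-fold without the 3 libraries). SNAI1 had fallen in LTED-A, LTED-B and LTED-E of MM134. EPCAM was higher than in parental cells in 12 of 12 MM134 LTED samples and lower in 5 of 5 SUM44 LTED samples. These samples come from 4 and 2 derivations, and EPCAM was a DE gene in no variant against its parental cells. The MM134 rises were under the fold minimum. In SUM44 it differed by -0.47 in LTED-A (adjusted p = 0.00733 in edgeR) and by -0.12 in LTED-B (adjusted p = 0.339 in edgeR). OVOL1 was higher than in SUM44F in 5 of 5 SUM44 LTED samples. However, SUM44PE also had more OVOL1 than SUM44F (0.63 on the log2 scale, adjusted p = 0.000427 in edgeR). Measured from SUM44PE, OVOL1 rose by 0.18 in LTED-A and 0.32 in LTED-B, and neither rise passed (adjusted p = 0.207 and 0.0141 in edgeR). The LTED-A call against SUM44F was lost with the replicate block (0.74, adjusted p = 0.00151 in edgeR). The contrast between the lines used SUM44F, and was not tested with SUM44PE in its place. The groups of 2 or 3 samples are too small for a test of single outlying samples, so SUM44F replicate 1 is described by its marker values alone.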

How the results depend on the processing

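Counts of members called changed with the thresholds. Apart from the fits that left out 1 sample, only counts that changed by more than 1.5-fold are listed. Beside each listed count is the share of all genes tested that passed at the same setting. With no minimum fold change the member counts were 6, 4, 5 and 6 in MM134 LTED-A, -B, -D and -E, in place of 3, 2, 1 and 3. Of all genes 37.8%, 32.5%, 35.4% and 35.5% passed then, in place of 20.3%, 15.9%, 17.6% and 19.0%. With a minimum of 2-fold the member counts were 1 in MM134 LTED-A (12.5% of all genes), LTED-E (12%) and SUM44 LTED-A (8.66%). They were 0 in SUM44PE (2.8%) and 3 in MM134 parental cells against SUM44F (27.5%). With an adjusted p under 0.05 they were 2 in MM134 LTED-D (23.5%) and in SUM44PE (10.5%). At least 10 counts in every sample gave 1 in MM134 LTED-B (17.4%) and 1 in SUM44 LTED-A (16.8%). There SNAI1 in MM134 (lowest count 8) and VIM in SUM44 (lowest count 7) were no longer tested. No filter and DESeq2 each gave 2 in SUM44PE (3.9% and 3.4%). The fit of the groups compared alone gave 0 in SUM44PE (5.21%) and 0 in SUM44 LTED-A (8.26%). Library totals gave 2 in MM134 LTED-D (19.5%) and 0 in SUM44PE (5.59%). The fit without the 3 libraries with fibroblast markers gave 2 in SUM44PE (5.1%). Leaving out 1 sample gave 0 to 2 in SUM44 LTED-A (0 without LTED-A replicate 1, 1 without replicates 2 and 3), 2 to 3 in SUM44 LTED-B, 0 to 2 in SUM44PE (0 without SUM44PE replicate 2 or 3, 2 without SUM44F replicate 1 or 2), 4 to 5 in MM134 parental cells against SUM44F and 2 to 5 in the interaction (2 without SUM44 LTED-A replicate 1).

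Replicate numbers shared between groups do not pair the samples: same-numbered samples correlated at -0.488 to 0.37 over 30 pairs in MM134 and -0.229 to 0.285 over 18 pairs in SUM44, and 10 and 6 of them correlated best with their own number. With the replicate block 1 member was called in SUM44 LTED-A in place of 2, OVOL1 being lost (0.74, adjusted p = 0.00151), and in SUM44PE VIM (-2.55) was called in place of OVOL1. The block changed no other count.

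Directions changed only for differences near 0 or those that rest on SUM44F replicate 1. Library totals, which moved the median of all genes by -0.14 to -0.20 in MM134 and by -0.17 and -0.20 in the SUM44 variants, gave ESRP1 -0.14, -0.065 and -0.18, VIM -0.12 (LTED-B), and ZEB2 and ESRP2 -0.14 each (LTED-D) in MM134, SNAI1 -0.19, TWIST1 -0.015 and ESRP2 -0.17 in SUM44 LTED-B, and ESRP2 -0.021 in SUM44PE. At least 10 counts gave SNAI1 -0.023 and ESRP2 -0.019, and the smaller fit SNAI1 -0.0045, in SUM44 LTED-B. Without the 3 libraries, ZEB1 was 0.20 in SUM44PE and 0.18 in MM134 parental cells against SUM44F, and 0.20 in both without SUM44F replicate 1. Leaving out 1 sample at a time gave ranges across 0: ZEB2 -0.11 to 0.21 and ESRP1 -0.0012 to 0.042 in MM134 LTED-D, TWIST1 -0.30 to 0.047 in SUM44 LTED-A, SNAI1 -0.19 to 0.15 and ESRP2 -0.063 to 0.11 in SUM44 LTED-B, ESRP2 -0.0018 to 0.12 and ZEB1 -0.76 to 0.20 in SUM44PE, and ZEB1 -0.81 to 0.20 and OVOL1 -0.05 to 0.15 in MM134 parental cells against SUM44F. The cause was not tested. A lone sample left in SUM44 LTED-A is assumed to vary like the other groups. ZEB1, SNAI1 and SNAI2, with few counts, are limited by depth, as is VIM in the SUM44 LTED variants.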
